A study of Homo sapiens with 8 samples.

Results

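The genes described here encode the proteins of mitochondrial oxidative phosphorylation that are made from nuclear DNA. The rule for membership uses the symbol alone and no measured value, although the list was proposed with earlier results of these data known. It takes protein-coding genes off the mitochondrial chromosome named NDUFA, NDUFB, NDUFC, NDUFS or NDUFV (complex I), SDHA to SDHD (complex II), UQCR (complex III), COX4 to COX8 (complex IV) or ATP5 (complex V) plus any suffix. This gave 98 genes of the 19775 nuclear protein-coding genes in a table of 58206 genes. By the known role of each product, 85 of the 98 are subunits or subunit isoforms (37 of complex I, 4 of complex II, 8 of complex III, 18 of complex IV and 18 of complex V), so the name oxidative phosphorylation subunits holds for most but not all of them. The prefixes also bring in 9 assembly factors (NDUFAF1 to NDUFAF8 and the supercomplex factor COX7A2L), 2 near-identical copies (UQCRHL, ATP5MGL) and 2 readthrough genes that join a subunit gene to its neighbour.

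The study sequenced mRNA from 8 samples of Alexander1, a human hepatocellular carcinoma line (ATCC CRL-8024) grown in serum-containing medium. The 4 parental samples are labelled "wt (Axin1 -)" and carry an AXIN1 gene that, by the design text, lacks the part binding the kinase GSK3, which leaves Wnt signalling on. The 4 other samples are labelled Axin1 + and stem from a stable derivative in which full-length Axin1 was put back. The labels give retroviral transfer of a plasmid and clonal selection in hygromycin B, on the parental samples as well, so the derivative may be 1 clone, and clone and Axin1 cannot be told apart. No label says that the 4 samples of a group came from separate cultures, so p-values measure only the spread between these samples.

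Complex I and complex II pass electrons from NADH and succinate to ubiquinone, complex III passes them to cytochrome c, and complex IV passes them to oxygen. Complexes I, III and IV pump protons across the inner mitochondrial membrane, and complex V, the ATP synthase, uses that gradient to make ATP. Hepatocytes are rich in mitochondria, and liver tumours often lean on glycolysis to a larger degree than normal liver does.

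Total counts per sample ran from 11232951 to 26400782, and 14289 genes had enough counts to test. AXIN1 itself had 55.1, 52.7, 47.3 and 54.1 CPM (counts scaled to a common library size) in the parental libraries and 47.5, 48.0, 48.2 and 37.6 CPM in the libraries labelled Axin1 +. Its mRNA was not higher in the second group (log2 fold change −0.21, SE 0.12, edgeR quasi-likelihood adjusted p = 0.27), so every direction below rests on the labels; "restored" means the libraries labelled Axin1 +. All 9 hepatocyte markers were detected, with summed levels of 23400 to 27200 CPM in parental and 18100 to 21600 CPM in restored libraries, mostly SERPINA1 (means of 16100 and 10300 CPM). Of the 9, FGB (log2 fold change 2.05) and TTR (1.76) rose, TF (−0.94) and SERPINA1 (−0.64) fell, and ALB had 13.8 CPM in restored library 1 against 444 to 680 CPM in the other restored libraries. The part of these marker differences in the results was not tested. KRT8 and KRT18 marked the cells as epithelial while EPCAM did not exceed 0.357 CPM. The 4 leukocyte markers summed to at most 1.24 CPM (CD3E at 0), the 4 striated muscle markers to at most 1.15 CPM and the 6 fibroblast markers to at most 4.58 CPM. The 3 endothelial markers summed to 4.53 to 6.76 CPM in parental and 34 to 58.4 CPM in restored libraries, nearly all of it PECAM1, with VWF and CDH5 near 0.

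Few oxidative phosphorylation genes passed the test between the groups. Of the 89 that could be tested, 6 were higher and 2 lower in the restored libraries at an edgeR adjusted p under 0.05, which is 8.99% of them, while 19.2% of all tested genes passed (10.4% higher and 8.77% lower). The genes that rose were NDUFA2 and NDUFB6 of complex I, UQCRFS1 and UQCRC2 of complex III, COX7B2 of complex IV and the assembly factor NDUFAF1. The genes that fell were NDUFA4L2, a paralogue of the complex IV subunit NDUFA4, and ATP5PB of complex V. With libraries scaled by total counts alone, 12 rose and 2 fell, against 1724 and 868 of all genes (1485 and 1253 with TMM scaling), which is 15.7% of these genes beside 18.1% of all. With no expression filter the order of the shares turned, to 13.5% of these genes beside 10.6% of all, over 30224 genes tested. With single libraries left out, 3 (without restored 3 or 4) to 12 (without parental 1 or restored 1) rose and 2 to 3 fell. Without parental 1 or restored 1, 15.7% of these genes passed, beside 24.1% and 22% of all genes tested. Without restored 3 or 4 the share was 5.62%, beside 10.7% and 9.71% of all. CPM values are shares of each library's mRNA, so fewer cells expressing a gene and less of its RNA per cell cannot be told apart.

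The median log2 fold change over the 89 genes was 0.03, beside 0.00 over all tested genes, and ran from −0.06 without restored library 2 to 0.17 without parental library 1. Complex III had the highest median of the complexes (0.22), followed by complex I (0.10), complex IV (0.08), complex V (−0.01) and complex II (−0.10), and the assembly factors had 0.02. With single libraries left out, the median ran from 0.09 to 0.32 for complex III, −0.02 to 0.20 for complex I, 0.01 to 0.38 for complex IV, −0.07 to 0.07 for complex V and −0.21 to −0.06 for complex II. The order of the complexes depended on parental library 1, without which complex IV (0.38) stood above complex III (0.32). Positive fold changes numbered 50 and negative ones 39, so 56.2% were positive, beside 50.2% of all tested genes. Of the 81 genes that did not pass the test, 77 had an absolute log2 fold change under 0.5 and 13 had an unadjusted p under 0.05. Over all 89 genes these numbers were 78 and 21, beside 9973 and 4786 of all 14289 tested genes. Among 2490 other protein-coding genes between the quartiles of the listed genes' level, they were 2083 and 859. The 95% interval of the log2 fold change lay within 1 unit either way for 73 of the 81 genes that did not pass, and within 0.5 units for 22. For most of the 81, these intervals therefore did not exclude a difference of more than 0.5 log2 units. The intervals are wider than the test implies, for the reason given under processing. In 5 genes every restored value lay above every parental value and in 6 every restored value lay below, while the groups did not overlap for 23.9% of all tested genes.

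**Figure D1:**
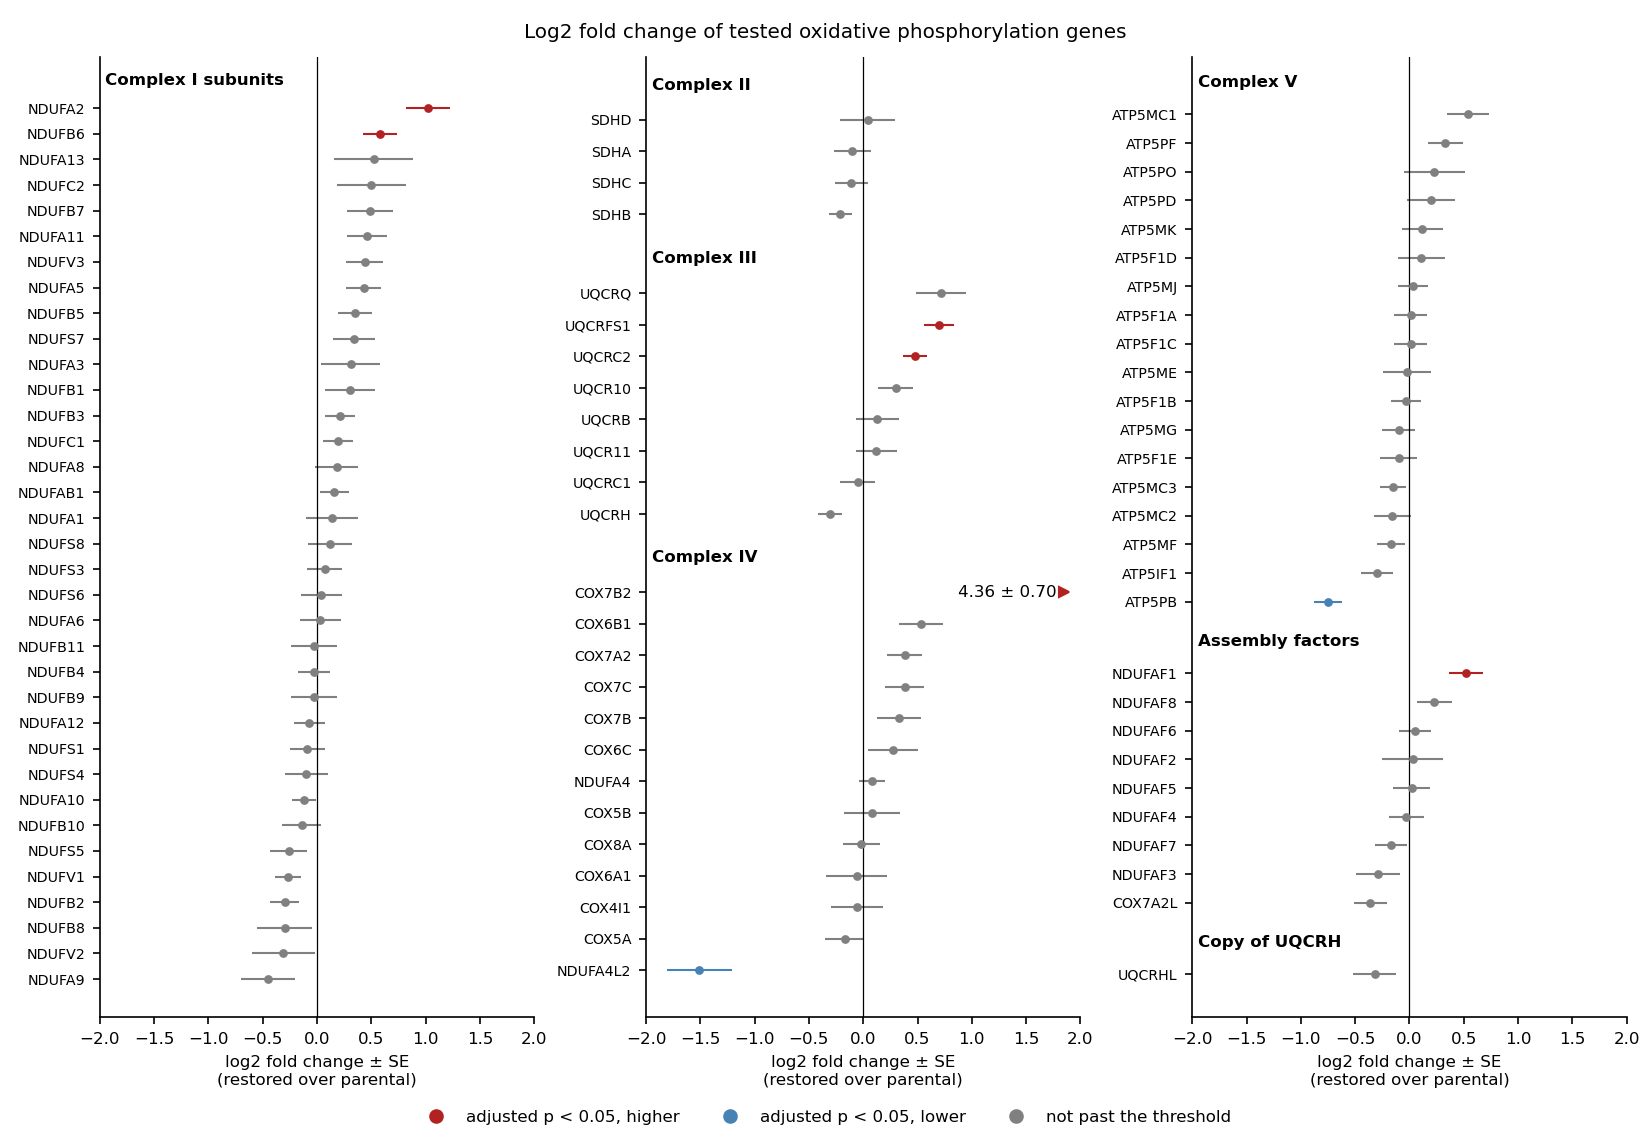
Log2 fold change (restored over parental, x axis) of the tested genes except 1, grouped by complex, with bars of 1 SE from the edgeR fit; red and blue points passed an adjusted p of 0.05. Most points lie within 0.5 of 0, and COX7B2, at 4.36 with an SE of 0.70, lies off the axis and is drawn as an arrow.

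The oxidative phosphorylation genes were abundant, with a median level of 123 CPM against 22.0 CPM over all tested genes, and short, with a median summed exon length of 2475 bases against 4620.5. Their fold changes had a median SE of 0.17, against 0.20 over all genes. Among other protein-coding genes between the quartiles of their exon length 21.5% passed the test, and among those between the quartiles of their level 19.6% passed.

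Promoters of respiratory genes are known for binding sites of the factors NRF1, GABP (an ETS family factor) and YY1. RefSeq promoter windows (GRCh38.p14, 250 bases before to 50 after the start site, the first window listed for each gene) were matched by symbol for 78 of the 98 genes and searched on both strands. The NRF1 motif GCGCANGCG occurred in 24 of the 78 windows (30.8%) and in 8.05% of all 27305 windows of the same length. The ETS motif CCGGAAG occurred in 21 (26.9%, against 10.7% of all windows) and the YY1 motif AANATGGC in 22 (28.2%, against 6.82%). The GC box GGGCGG was found in 57.7% of the genes' windows and 44.6% of all, and the TATA box TATAAA in 8.97% and 12%. The set of all windows was not limited to protein-coding genes. Its median GC content was 58.3%, against 61.0% in the 78 windows. No motif contains another, though hits of different motifs can share bases, and a match is a description of letters, not of binding.

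The windows of 4 genes that passed the test are shown because they differ in these letters while the genes differ in direction. Capitals mark a match to the NRF1, ETS or YY1 motif on either strand, and each window reads 5′ to 3′ along the gene. UQCRFS1 (chr19:29213102-29213401, minus strand) and NDUFA2 (chr5:140647581-140647880, minus strand) rose, COX7B2 (chr4:46909196-46909495, minus strand) rose from near 0, and ATP5PB (chr1:111449214-111449513, plus strand) fell.
UQCRFS1: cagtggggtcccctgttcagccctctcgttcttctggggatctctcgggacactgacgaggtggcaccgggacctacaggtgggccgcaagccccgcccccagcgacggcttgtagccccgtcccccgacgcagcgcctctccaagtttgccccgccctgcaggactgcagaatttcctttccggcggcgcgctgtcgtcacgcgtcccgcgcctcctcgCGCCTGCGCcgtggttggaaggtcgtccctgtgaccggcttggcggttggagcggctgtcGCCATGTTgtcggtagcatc
NDUFA2: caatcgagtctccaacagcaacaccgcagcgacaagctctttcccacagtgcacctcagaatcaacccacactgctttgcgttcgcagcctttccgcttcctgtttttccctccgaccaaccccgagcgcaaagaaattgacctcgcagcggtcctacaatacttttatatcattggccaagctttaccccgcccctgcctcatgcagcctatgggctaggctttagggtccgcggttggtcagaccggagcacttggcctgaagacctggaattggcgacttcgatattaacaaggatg
COX7B2: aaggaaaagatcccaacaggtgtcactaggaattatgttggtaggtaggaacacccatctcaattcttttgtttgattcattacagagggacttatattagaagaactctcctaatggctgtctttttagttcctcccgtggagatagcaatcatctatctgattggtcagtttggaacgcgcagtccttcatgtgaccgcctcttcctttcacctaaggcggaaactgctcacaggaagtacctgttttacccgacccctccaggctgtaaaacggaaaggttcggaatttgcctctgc
ATP5PB: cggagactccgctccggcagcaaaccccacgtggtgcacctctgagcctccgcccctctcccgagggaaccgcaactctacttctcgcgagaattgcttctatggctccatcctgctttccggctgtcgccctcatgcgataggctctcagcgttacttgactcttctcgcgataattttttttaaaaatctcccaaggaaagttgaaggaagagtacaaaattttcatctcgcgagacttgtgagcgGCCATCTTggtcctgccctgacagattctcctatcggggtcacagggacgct
UQCRFS1 held an NRF1 match, CGCCTGCGC, whose first base lies at −30 from the start site, and a YY1 match, GCCATGTT, at 31. ATP5PB held a YY1 match, GCCATCTT, at −2. The windows of NDUFA2 and COX7B2 held none of the 3 motifs, and neither did those of NDUFB6, UQCRC2 and NDUFAF1. Each of the 3 motifs alone was found in 26.9 to 30.8% of the listed genes' windows. The share with any of the 3 was not counted, for the listed genes or for all windows. No window was available for NDUFA4L2, which also fell, so a link between these motifs and direction was not tested.

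In complex I, 2 of 36 tested subunits rose (5.56%) and none fell, beside 10.4% and 8.77% of all tested genes. NDUFA2, a small accessory subunit of the matrix arm, is encoded at chr5:140638740-140647785 on the minus strand. Its level was 73.9, 65.8, 48.0 and 64.9 CPM in parental libraries 1 to 4 and 87.6, 162, 151 and 112 CPM in restored libraries 1 to 4. Every restored value lay above every parental value, and the log2 fold change was 1.02 (SE 0.20, edgeR adjusted p = 0.0068), the largest rise among the complex I subunits. The 40 nearest tested genes had a median log2 fold change of 0.38. Its exons overlap those of IK and TMCO6 on the other strand, and IK also rose (log2 fold change 0.54, adjusted p = 0.021) while TMCO6 had 0.05 (adjusted p = 0.84). Whether the counting used strand is not given in the sources used here, so reads of NDUFA2 and IK may have been mixed.

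NDUFB6 is an accessory subunit of the membrane arm, which carries the proton pumps. It had 30.5, 42.7, 40.3 and 34.9 CPM in the parental libraries and 41.1, 63.8, 58.4 and 58.6 CPM in the restored ones. Restored library 1 fell within the parental range and the other restored values lay above it, and the log2 fold change was 0.58 (SE 0.16, edgeR adjusted p = 0.032). The call was lost when any of 6 single libraries was left out (parental 2, 3 or 4, or restored 2, 3 or 4), with adjusted p between 0.051 and 0.090. NDUFV3, a small subunit of the NADH-oxidising module, had 144, 109, 104 and 95.9 CPM in parental and 119, 184, 160 and 153 CPM in restored libraries. The groups overlapped through parental library 1 and restored library 1, and its log2 fold change of 0.44 did not pass (SE 0.17, edgeR adjusted p = 0.090). It did with parental library 1 left out (adjusted p = 0.018) or restored library 1 left out (0.034). Without any other single library the adjusted p of NDUFV3 was 0.17 to 0.20. NDUFA5, an accessory subunit of the matrix arm, had 51.6, 58.1, 61.3 and 45.6 CPM in parental and 55.2, 86.2, 66.2 and 83.7 CPM in restored libraries. Restored library 1 lay within the parental range, and the log2 fold change was 0.43 (SE 0.16, edgeR adjusted p = 0.092). The adjusted p of NDUFA5 was 0.028 without restored library 1 and 0.10 to 0.23 without any other single library.

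The core subunits of complex I described here, most of which bind the flavin or iron-sulfur clusters, did not pass the test in either direction. NDUFV1, the subunit that binds NADH, had a log2 fold change of −0.27 (95% interval −0.56 to 0.03) and every restored value below every parental one, from 243, 250, 258 and 280 CPM to 202, 224, 240 and 190 CPM. NDUFS1, which holds several iron-sulfur clusters, had −0.09 (−0.47 to 0.30). NDUFS3 had 0.07 (−0.31 to 0.46) and NDUFS8 had 0.12 (−0.37 to 0.60). NDUFS7, which holds the last cluster before ubiquinone, had 0.34 (−0.12 to 0.79). NDUFV2 had −0.31 (−1.02 to 0.40), but at a level of only 4.26 CPM ± 1.64 (SD, n = 4) in parental and 3.41 ± 0.713 in restored libraries, below its own pseudogene NDUFV2P1, which had a mean of 6.16 and 7.72 CPM. Reads of the gene and that copy may have been split or lost in counting, so the value of NDUFV2 is uncertain.

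The low counts of NDUFA13 and NDUFA7, both accessory subunits of complex I, share that limit. NDUFA13 had 0.756 CPM ± 0.269 (SD, n = 4) in parental and 1.09 ± 0.315 in restored libraries, and its exons overlap those of YJEFN3 on the same strand. NDUFA7 had 2 to 11 counts in each library and was not tested, and it overlaps the ribosomal protein gene RPS28 on the other strand. NDUFA9, which sits at the junction of the 2 arms, had the lowest log2 fold change of complex I, at −0.45 (SE 0.25, edgeR adjusted p = 0.23). NDUFA11 was the only one of the 89 tested genes besides those that passed with every restored value above every parental one, from 11.7, 9.73, 10.9 and 9.86 CPM to 11.8, 18.5, 15.5 and 12.4 CPM (log2 fold change 0.46, SE 0.18, edgeR adjusted p = 0.10).

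Complex II, which links the tricarboxylic acid cycle to the respiratory chain, had 4 tested subunits, none past the threshold. SDHB, the iron-sulfur subunit, had 210, 203, 198 and 197 CPM in parental and 154, 184, 190 and 169 CPM in restored libraries. All restored values lay below the parental ones, but the log2 fold change of −0.21 did not pass (SE 0.11, edgeR adjusted p = 0.21). SDHC, a membrane anchor that binds heme with SDHD, had 107, 147, 161 and 148 CPM in parental and 138, 109, 136 and 139 CPM in restored libraries. Parental library 1 and restored library 2 stood at the bottom of their groups, and the log2 fold change was −0.11 (SE 0.15, edgeR adjusted p = 0.64). SDHA, which carries the flavin and oxidises succinate, had −0.10 (95% interval −0.50 to 0.31), and SDHD had 0.04 (−0.57 to 0.65).

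In complex III, 2 of 8 subunits rose (25%) and none fell, beside 10.4% and 8.77% of all tested genes. UQCRFS1, the Rieske iron-sulfur protein that hands electrons from ubiquinol towards cytochrome c, is encoded at chr19:29205321-29213541 on the minus strand. It had 106, 126, 132 and 150 CPM in parental and 188, 187, 250 and 211 CPM in restored libraries. The groups did not overlap, and the log2 fold change was 0.70 (SE 0.14, edgeR adjusted p = 0.0083), a 1.62-fold rise, while the 40 nearest tested genes had a median of 0.21. UQCRC2, a core protein that scaffolds the dimer on the matrix side, had 71.9, 82.3, 84.4 and 73.9 CPM in parental and 97.8, 107, 112 and 119 CPM in restored libraries. All restored values were above all parental ones and the log2 fold change was 0.48 (SE 0.11, edgeR adjusted p = 0.015), with a median of 0.03 among its neighbours. Its call was lost without restored library 4 (adjusted p = 0.055) and lay at the threshold without restored library 3 (0.050).

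The other core protein did not move with UQCRC2. UQCRC1 had 425, 313, 294 and 290 CPM in parental and 284, 372, 337 and 281 CPM in restored libraries, a log2 fold change of −0.05 with a 95% interval of −0.44 to 0.34. UQCRH, the hinge protein that helps dock cytochrome c, had 231, 238, 230 and 218 CPM in parental and 169, 204, 187 and 180 CPM in restored libraries, without overlap, and its log2 fold change of −0.31 did not pass (SE 0.11, edgeR adjusted p = 0.072). UQCRH passed with the DESeq2 Wald test, with the length and GC offset, and with parental library 1 and restored library 2 both left out. Its copy UQCRHL, whose reads may be shared with it, had −0.32 (SE 0.20). UQCRQ, a small subunit next to cytochrome b, was picked out after its values were seen, having the highest log2 fold change of the complex. It had 215, 137, 108 and 132 CPM in parental and 179, 324, 264 and 208 CPM in restored libraries, which overlap through parental library 1 and restored libraries 1 and 4. Its log2 fold change of 0.72 (SE 0.23) lay just outside the threshold (edgeR adjusted p = 0.053), and its 40 nearest tested genes had a median of 0.71. The adjusted p of UQCRQ was 0.0054 without parental library 1 and 0.029 without restored library 1. Without any other single library it was 0.081 to 0.13.

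In complex IV, the 2 of 13 tested genes that passed (15.4%, beside 19.2% of all tested genes) were isoforms at low levels. No major subunit did, although COX6B1, COX7A2 and COX7C passed as higher in some alternative fits. COX7B2, a paralogue of COX7B known mainly from testis, is encoded at chr4:46734827-46909235 on the minus strand. It had 3, 1, 3 and 5 counts in parental and 24, 76, 132 and 164 counts in restored libraries, or 0.266, 0.0676, 0.267 and 0.357 CPM against 0.859, 6.26, 6.49 and 6.39 CPM. The groups did not overlap, restored library 1 stood far below the other restored libraries, and the log2 fold change was 4.36 (SE 0.70, edgeR adjusted p = 0.0021), while its neighbours had a median of −0.24. Even so COX7B2 made up a small share of the pooled counts of COX7B and COX7B2, at 0.0802% (exact binomial 95% interval 0.0415 to 0.140) in parental and 1.32% (1.20 to 1.46) in restored libraries. Per kilobase of exon its share was 0.0802 to 0.504% in single parental libraries and 1.26 to 6.61% in restored ones. COX7B, the widely expressed form, had 352, 316, 232 and 264 CPM in parental and 253, 483, 392 and 338 CPM in restored libraries (log2 fold change 0.33, SE 0.20, edgeR adjusted p = 0.28).

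NDUFA4L2 is known as a hypoxia-induced paralogue of NDUFA4, the latter a subunit of complex IV despite its name, and is encoded at chr12:57234903-57240715 on the minus strand. It had 6.13, 4.12, 2.94 and 3.36 CPM in parental and 1.65, 1.07, 1.62 and 1.36 CPM in restored libraries. All restored values lay below all parental ones, and the log2 fold change was −1.51 (SE 0.30, edgeR adjusted p = 0.0064). Its share of the pooled counts of the pair was 2.54% (exact binomial 95% interval 2.21 to 2.90) in parental and 0.897% (0.748 to 1.07) in restored libraries. Its exons overlap SHMT2 on the other strand, a gene with a mean of 5050 counts against 42.1 for NDUFA4L2, which itself fell by 0.44 on the log2 scale (adjusted p = 0.030). Part of the counts of NDUFA4L2 may come from that gene, and how much was not tested. NDUFA4 had 173, 165, 157 and 136 CPM in parental and 149, 178, 179 and 159 CPM in restored libraries, a log2 fold change of 0.08 (95% interval −0.22 to 0.37).

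The remaining tissue isoforms were at or near 0. COX4I2, known from lung and as an oxygen-regulated form, had 1 count of 32657 for the COX4I1 and COX4I2 pair in parental and 0 of 49529 in restored libraries, which allows a share of up to 0.00606%. COX6A2, a heart and muscle form, had 0 of 6029 and 0 of 9094 counts of its pair, which allows up to 0.0498% and 0.0330%. COX7A1, another muscle form, had 4 of 13922 and 7 of 29040 counts of the pair with COX7A2. COX6B2, a testis form, had 10 of 17162 and 28 of 38907 counts of its pair (0.0583% and 0.0720%), and COX8C, also a testis form, 1 of 4554 and 1 of 7241. These intervals and limits cover counting error only.

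The isoforms found in most tissues carried the rest. COX4I1, which regulates the complex through ATP, had 946, 610, 508 and 518 CPM in parental and 454, 855, 644 and 522 CPM in restored libraries, with 1 library of each group far above the others, and a log2 fold change of −0.06 (95% interval −0.66 to 0.53). COX6A1 had 189, 111, 95.6 and 84.3 CPM in parental and 83.8, 173, 111 and 93.9 CPM in restored libraries (−0.06, −0.74 to 0.62). The same 2 libraries, parental 1 and restored 2, were the highest of their groups in both genes. COX6B1, which links the 2 monomers, had 405, 367, 245 and 314 CPM in parental and 363, 620, 536 and 403 CPM in restored libraries (0.53, SE 0.20, edgeR adjusted p = 0.096). COX7A2 had 300, 292, 247 and 246 CPM in parental and 277, 438, 381 and 321 CPM in restored libraries (0.38, SE 0.16, edgeR adjusted p = 0.11). COX6B1 passed as higher without parental library 1 (edgeR adjusted p = 0.041) or restored library 1 (0.046), but not without any other (0.11 to 0.22). It also passed with total counts, without the expression filter and with the length and GC offset (0.022 to 0.038). COX7A2 passed without restored library 1 (0.042) and with total counts (0.04), and COX7C without parental library 1. COX8A had 115, 86.7, 74.0 and 81.9 CPM in parental and 75.7, 107, 97.0 and 72.3 CPM in restored libraries (−0.02, 95% interval −0.44 to 0.40).

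In complex V, 1 of 18 genes fell (5.56%) and none rose, beside 8.77% and 10.4% of all tested genes. ATP5PB, the b subunit of the peripheral stalk that holds the catalytic head still, is encoded at chr1:111448864-111462773 on the plus strand. It had 89.3, 113, 119 and 103 CPM in parental and 72.9, 56.3, 63.6 and 59.5 CPM in restored libraries. The groups did not overlap, and the log2 fold change was −0.75 (SE 0.13, edgeR adjusted p = 0.0035). Its 40 nearest tested genes had a median of −0.56, and WDR77, whose exons overlap it on the other strand, had −0.90 (adjusted p = 0.0046). ATP5MC1, one of 3 genes for the same c-ring subunit that turns as protons pass, had 231, 172, 138 and 163 CPM in parental and 207, 317, 284 and 216 CPM in restored libraries. The groups overlapped and the log2 fold change of 0.54 did not pass (SE 0.19, edgeR adjusted p = 0.067), although it did without parental library 1 (0.012) or restored library 1 (0.043). Without any other single library the adjusted p of ATP5MC1 was 0.086 to 0.17.

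The catalytic subunits of the ATP synthase were among the most abundant of these genes and did not pass the test. ATP5F1A, the alpha subunit, had a mean of 710 CPM ± 125 (SD, n = 4) in parental and 713 ± 41.7 in restored libraries, a log2 fold change of 0.01 (95% interval −0.36 to 0.38). ATP5F1B, the beta subunit that makes ATP, had 1180 CPM ± 90.1 and 1160 ± 130, a log2 fold change of −0.03 (−0.36 to 0.31). ATP5IF1, the protein that inhibits the enzyme when it runs in reverse, had 152, 129, 102 and 126 CPM in parental and 92.2, 123, 109 and 90.1 CPM in restored libraries (−0.30, SE 0.15, edgeR adjusted p = 0.20).

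Among the assembly factors that the prefixes bring in, 1 of 9 rose (11.1%), beside 10.4% of all tested genes. NDUFAF1, which helps join the membrane arm of complex I, had 23.5, 23.3, 21.9 and 25.8 CPM in parental and 24.8, 38.3, 36.9 and 35.3 CPM in restored libraries. Restored library 1 lay within the parental range, and the log2 fold change was 0.52 (SE 0.16, edgeR adjusted p = 0.041). Leaving out any of parental 2, 3 or 4 or restored 2, 3 or 4 ended the call (adjusted p between 0.058 and 0.11), as did limma-voom (0.063). COX7A2L, which joins complexes III and IV into supercomplexes, had 172, 176, 202 and 130 CPM in parental and 150, 133, 122 and 124 CPM in restored libraries (log2 fold change −0.36, SE 0.15, edgeR adjusted p = 0.11; it passed as lower without parental library 4 and with the length and GC offset).

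**Figure D2:**
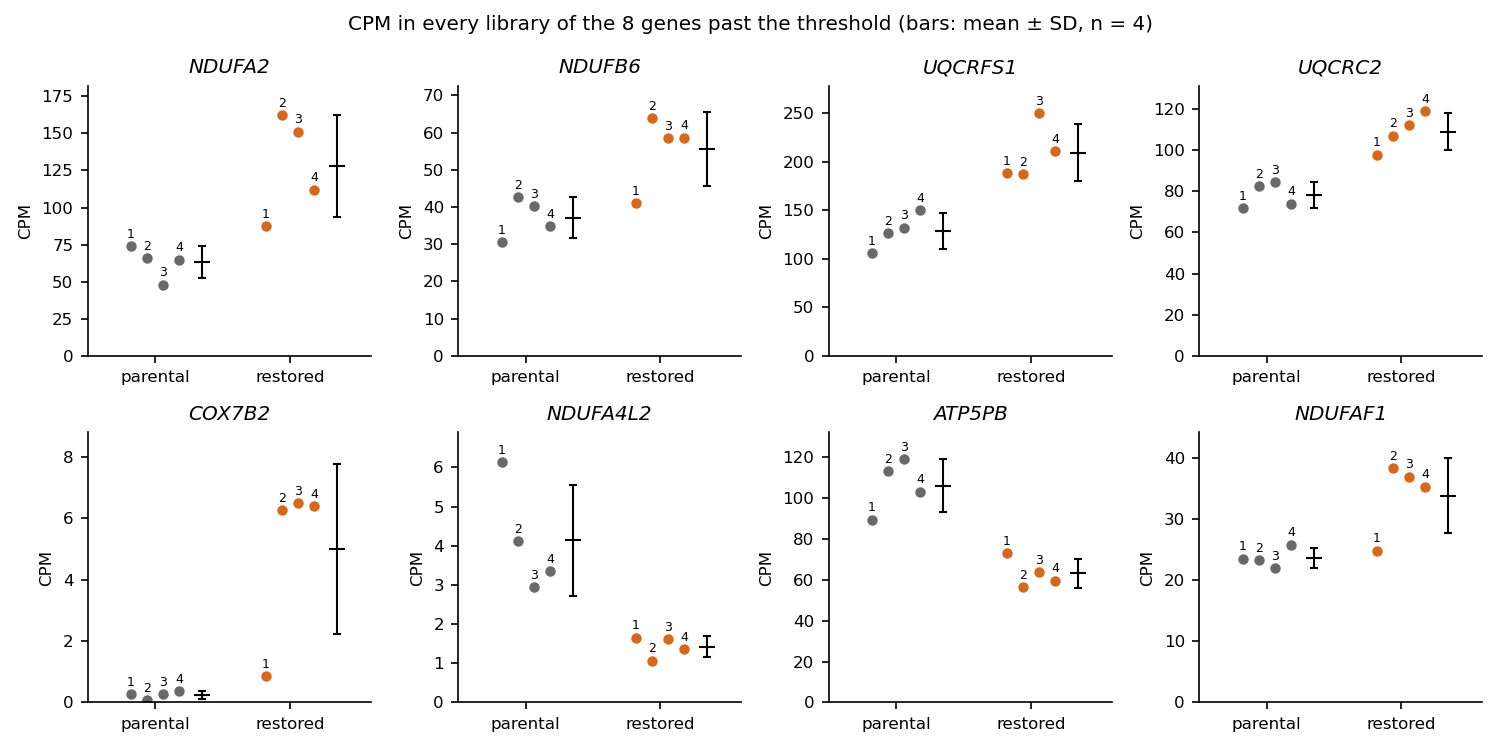
CPM (y axis, from 0, scaled per gene) of the 8 genes past the threshold in each library, numbered by replicate, with the mean and SD of 4 libraries beside them. Restored library 1 is the lowest restored value for NDUFA2, NDUFB6, UQCRC2, COX7B2 and NDUFAF1, and lies within the parental range for NDUFB6 and NDUFAF1.

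Most of the oxidative phosphorylation genes moved together from library to library within each group. Parental library 1 held the highest parental value in 63 of the 89 tested genes, restored library 2 held the highest restored value in 63, and 55 genes had both. Restored library 1 held the lowest restored value in 64. These ranks were not counted over all tested genes. Some abundant genes went the other way: ATP5F1A (524 CPM), ATP5F1B (1060 CPM) and NDUFS1 (114 CPM) were lowest of the parental libraries in parental library 1. Among the restored libraries, ATP5F1B (1010 CPM) and NDUFS1 (135 CPM) were lowest in restored library 2. Relative to each gene's mean over the 8 libraries, the median log2 CPM of the 89 genes was 0.21, −0.01, −0.17 and −0.15 in parental libraries 1 to 4 and −0.21, 0.30, 0.13 and −0.11 in restored libraries 1 to 4. Their share of all counts was 1.51, 1.44, 1.34 and 1.39% in the parental libraries and 1.37, 1.76, 1.65 and 1.48% in the restored ones, with means of 1.42% ± 0.0696 (SD, n = 4) and 1.57% ± 0.174. The 2 ranges overlapped, and restored library 1 lay within the parental range.

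The shift was unequal between complexes and followed another list of short, abundant genes in part. Complex IV spanned the widest range, from −0.32 in parental library 4 to 0.51 in restored library 2, whereas complex II had −0.37 in parental library 1, where complexes I, III, IV and V had 0.14 to 0.39. The cytosolic ribosomal protein genes had 0.80, 0.20, −0.01 and −0.18 in the parental libraries and −0.42, 0.22, −0.12 and −0.40 in the restored ones. The mitochondrial ribosomal protein genes stayed between −0.16 and 0.08, and the median over all genes stayed between 0.00 and 0.03. What sets parental library 1 and restored library 2 apart was not tested. With both left out, 13 oxidative phosphorylation genes passed the test, 9 higher and 4 lower, of which 6 were among the 8 above, and the median log2 fold change was 0.06. The 13 were 14.6% of these genes, beside 22.2% of all genes tested in that fit.

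**Figure D3:**
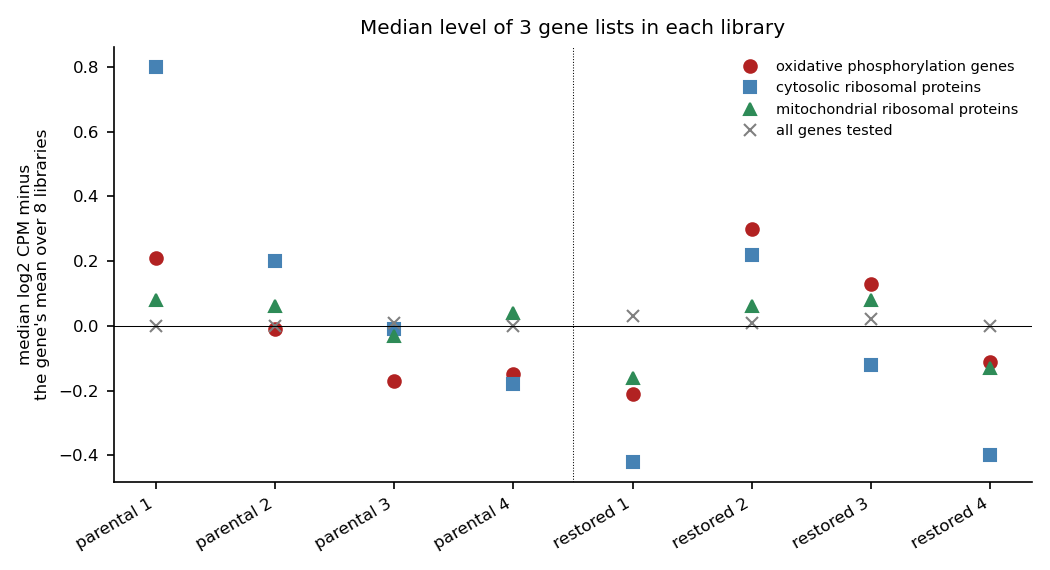
Median over each gene list of log2 CPM minus the gene's mean over the 8 libraries (y axis, log2 units), for each library (x axis; parental left, restored right of the dotted line). The oxidative phosphorylation genes stand highest in parental library 1 (0.21) and restored library 2 (0.30), as do the cytosolic ribosomal proteins within each group.

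Outside the list, the 5 genes whose log2 CPM over the 8 libraries was most like the mean standardised profile of the 89 genes were GPX4 (Pearson r = 0.987), PGPEP1 (0.978), GSTK1 (0.977), PIN4 (0.977) and PSME2 (0.970). They were picked for this likeness, and all points share the libraries and their depth, so the values are a description. None of the 5 differed between the groups past the threshold, with log2 fold changes from 0.04 to 0.15. They were picked to match a profile with little group difference, so this is no separate result.

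Where the genes lie on the chromosomes ran alongside several of the differences. The 7 genes on chromosome 5 include NDUFA2 (log2 fold change 1.02) and UQCRQ (0.72), both on the long arm, where 40 neighbouring tested genes had medians of 0.38 and 0.71. The other tested genes of chromosome 5 had a median of 0.40 and 31.6% of them were higher, against 10.4% of all genes. The 7 listed genes had a median of 0.04: COX7C had 0.38, NDUFS6 0.04, NDUFAF2 0.03, and SDHA and NDUFS4 −0.10 each. The 8 genes on chromosome 1 had a median of −0.28, beside −0.16 for the other tested genes there, and ATP5PB lay among neighbours with a median of −0.56. The 9 genes on chromosome 19 had a median of 0.46, beside 0.20 for the other genes. For UQCRC2, COX7B2 and NDUFA4L2 the neighbours' medians were 0.03, −0.24 and −0.12. Copy number was not measured, and its part in these values was not tested.

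**Figure D4:**
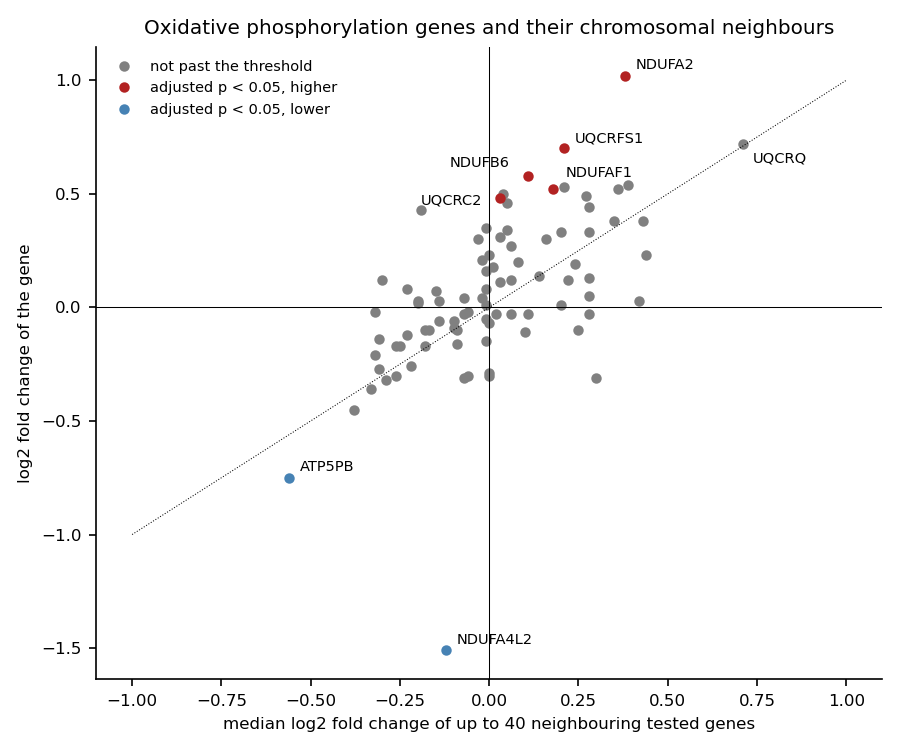
Log2 fold change of the tested genes except COX7B2 and 1 other (y axis) against the median log2 fold change of its up to 40 nearest tested genes on the same chromosome (x axis), with the line of equality dotted. ATP5PB and UQCRQ lie near the line, whereas NDUFA4L2 (−1.51) and UQCRC2 (0.48) have neighbours near 0.

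The genes that work beside the complexes were read from the same fit. Of all tested genes, 10.4% rose and 8.77% fell. The shares were 0% and 12.5% for the electron carrier genes and 11.6% and 6.98% for the other assembly factors. Of 16 electron carrier genes, including the cytochrome c1 gene CYC1, the cytochrome c gene CYCS and the ubiquinone synthesis genes, 2 fell and none rose, with a median log2 fold change of 0.05. The 2 were COQ5, a methyltransferase of ubiquinone synthesis (−0.55, SE 0.15, edgeR adjusted p = 0.030), and ETFA, a subunit of the electron transfer flavoprotein of fatty acid oxidation (−0.53, SE 0.16, adjusted p = 0.036). CYC1 had −0.27 (SE 0.14, adjusted p = 0.21) and CYCS −0.16 (SE 0.13, adjusted p = 0.41). Of 43 tested assembly factor genes with other names, 5 rose and 3 fell, with a median of 0.09, and those with the smallest p were COX14 (0.61, SE 0.14, adjusted p = 0.012) and COA5 (0.57, SE 0.13, adjusted p = 0.013), both needed to build complex IV. LYRM7 and TTC19, which serve the assembly of the Rieske protein UQCRFS1 into complex III and its later turnover, rose by 0.74 and 0.51 on the log2 scale (adjusted p = 0.019 and 0.033), whereas BCS1L, which inserts that protein, fell by 0.51 (adjusted p = 0.016). These 3 were named after their values were seen. Neighbouring tested genes had a median log2 fold change of 0.60 for LYRM7, −0.03 for TTC19 and −0.34 for BCS1L. For COQ5, ETFA, COX14 and COA5 that median was −0.13, −0.12, −0.16 and 0.02. The calls were sensitive to single libraries: COQ5 was lost without 5 of the 8 libraries and ETFA without 7 (each except parental 1), and the other assembly factors that rose numbered 2 without restored library 4, 3 without parental library 2 and 8 without restored library 1, while those that fell numbered 0 without restored library 4, 2 without parental library 2, parental library 4 or restored library 2, and 7 without parental library 1.

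Of 18 genes of the tricarboxylic acid cycle and pyruvate dehydrogenase, 1 rose (5.56%) and 3 fell (16.7%), with a median log2 fold change of 0.01. Of all tested genes, 10.4% rose and 8.77% fell. IDH2, the mitochondrial NADP-dependent isocitrate dehydrogenase, had −0.81 (SE 0.15, edgeR adjusted p = 0.0048), and PDHA1, the catalytic subunit of pyruvate dehydrogenase, had 0.51 (SE 0.14, adjusted p = 0.026). Of 18 regulators of mitochondrial biogenesis, 2 fell (11.1%) and none rose, with a median of 0.01. They were the coactivator PPRC1 (−0.53, SE 0.11, adjusted p = 0.0066) and the nuclear receptor ESRRA (−0.57, SE 0.15, adjusted p = 0.023). Among the others PPARGC1A had 0.00 (SE 0.16), NRF1 0.36 (SE 0.17), GABPA, the DNA-binding subunit of GABP, 0.70 (SE 0.25, adjusted p = 0.075), TFAM 0.01 (SE 0.20) and YY1 −0.02 (SE 0.11). HIF1A had 0.70 (SE 0.29, adjusted p = 0.12). Neighbouring tested genes had a median of −0.13 for IDH2, 0.75 for PDHA1, −0.04 for PPRC1 and −0.32 for ESRRA. PDHA1 was lost without any single library except parental 1 or restored 1 (adjusted p 0.054 to 0.088), ESRRA was lost without parental 2, restored 3 or restored 4 (0.054 to 0.071), and the tricarboxylic acid cycle genes that fell numbered 1 without parental 2 or 3 or restored 2, 3 or 4.

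Of 19 tested glycolysis genes, 1 rose (5.26%) and 5 fell (26.3%), with a median log2 fold change of −0.10. Of all tested genes, 10.4% rose and 8.77% fell. The shares were 3.33% each for import and cristae genes and 2.6% and 5.19% for mitochondrial ribosomal protein genes. They were 0% and 11.7% for cytosolic ribosomal protein genes. PFKP, a phosphofructokinase, had −1.51 (SE 0.30, edgeR adjusted p = 0.0062), and TPI1, triosephosphate isomerase, −0.66 (SE 0.15, adjusted p = 0.012). Of 30 import and cristae genes, 1 fell and 1 rose, with a median of 0.00; they were the prohibitin PHB2 (−0.73, SE 0.13, adjusted p = 0.0033) and the cristae junction protein APOO (0.57, SE 0.13, adjusted p = 0.013). Of 77 mitochondrial ribosomal protein genes, 2 rose and 4 fell, with a median of −0.07, led by MRPS31 (−1.57, SE 0.27, adjusted p = 0.0029) and MRPL11 (−0.48, SE 0.12, adjusted p = 0.020). Of 77 cytosolic ribosomal protein genes, 9 fell and none rose, with a median of −0.41, led by RPL5 (−0.99, SE 0.21, adjusted p = 0.0084) and RPL12 (−1.04, SE 0.25, adjusted p = 0.016). That last count was 1 without restored library 3 or 4, 2 without parental 2, 5 without restored 1, 14 without restored 2 and 19 without parental 4, and RPL12 was lost without restored 3 or 4. The glycolysis genes that fell numbered 3 without parental 2 or 3 or restored 3 or 4. The mitochondrial ribosomal protein genes that fell numbered 1 without parental 2 or restored 4 and 2 without parental 3 or restored 2 or 3, and those that rose 6 without parental 1, 4 without restored 1 and at most 1 without any other library. MRPL11 was lost without restored 4 (adjusted p = 0.067). Neighbouring tested genes had a median of −0.01 for PFKP, −0.44 for TPI1, −0.43 for PHB2 and 0.22 for APOO. It was −0.55 for MRPS31, −0.30 for MRPL11, −0.43 for RPL5 and −0.05 for RPL12. The part of chromosomal place in the differences of these lists was not tested.

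**Figure D5:**
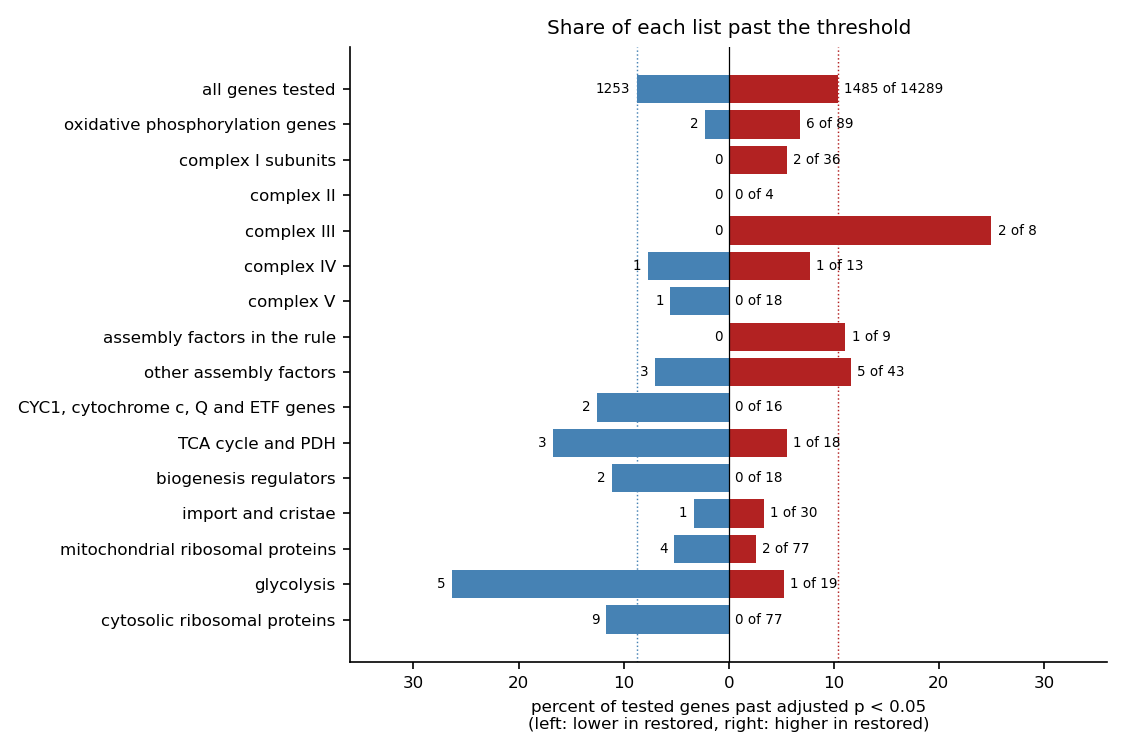
Percent of the tested genes of each list that passed an edgeR adjusted p of 0.05 (x axis; higher in restored to the right, lower to the left), with the number of genes beside each bar; dotted lines mark all tested genes (10.4% higher, 8.77% lower). The oxidative phosphorylation genes lie inside both lines, at 6 of 89 higher and 2 of 89 lower.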

How the data were processed

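Messenger RNA libraries of 8 samples, 4 parental and 4 restored, were compared. The authors deposited raw counts per gene, whole numbers without normalization. The submitters' processing notes name bcl2fastq, fastp 0.23.1, STAR 2.7.4 and GRCh38; the annotation, counting program and use of strand are not given in the sources used here. Of 58206 gene identifiers, 57943 were found in GENCODE release 29, which gave coordinates, lengths and overlaps, and 57495 in a table of symbols.

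Counts were fitted in R 4.3.3 with edgeR 4.0.16: filterByExpr (minimum count 10, total 15), TMM scaling, the quasi-likelihood test of 2 groups without covariates, two-sided, with Benjamini-Hochberg adjustment over 14289 genes and a threshold of 0.05. Each SE was derived from the F statistic and the size of the log2 fold change, and intervals are at 95%. Intervals of log2 fold changes use only the residual degrees of freedom, fewer than the test uses. They are therefore wider than the test implies, and some include 0 at an unadjusted p under 0.05. CPM values are based on TMM-scaled totals. The tests were checked on simulated data.

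Named were AXIN1, every listed gene past the threshold, the 4 smallest p-values in complex I and 2 in each other complex, isoform pairs, catalytic subunits, and 2 genes of each other list. COX7B with COX7B2 was added as a pair after seeing the data, and NDUFV2P1, NDUFA7, NDUFA9, NDUFA11, NDUFA13, UQCRH, SDHD, COX7A2L and regulators below the threshold were named for their values. The members and lists were chosen with earlier results of these data known. Alternatives were other scalings, filters and tests (limma 3.58.1, DESeq2 1.42.0), a length and GC offset (splines, 5 degrees of freedom), the replicate number as a block, and leaving out each library. Mitochondrial-chromosome genes were not analysed here. The single values of 1 gene of the list are not reported here; it stays in the counts and medians.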

Additional observations from a re-analysis of the deposited data

Results flagged for a closer look

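In 3 of the 60 groups of 4 values examined, 1 library lay far from the other 3; chance gives about 1 in 20. SDHC had 109 CPM in restored library 2, while the other restored libraries had 136 to 139 CPM. COX7B2 had 0.859 CPM in restored library 1, while the other restored libraries had 6.26 to 6.49 CPM. UQCRC1 had 425 CPM in parental library 1, while the other parental libraries had 290 to 313 CPM.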

How the results depend on the processing

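NDUFA2, UQCRFS1, COX7B2, NDUFA4L2 and ATP5PB kept their direction and stayed past an adjusted p of 0.05 under every alternative fit and with each library left out. The genes that rose numbered 6. They numbered 12 with total counts only, 11 with no expression filter, 10 with the length and GC offset and 3 at an adjusted p under 0.01. When single libraries were left out they numbered 3 to 12 (12 without parental 1 or restored 1, 3 without restored 3 or 4). In either direction, the listed genes passed at 15.7% with total counts (18.1% of all genes), 13.5% with no filter (10.6%) and 15.7% with the offset (22.8%). With the DESeq2 Wald test 11 of them passed, or 12.4% (24.6% of all genes). The genes that fell numbered 2; they numbered 4 with the offset and 4 with parental 1 and restored 2 both left out (a choice made after seeing the data), and 2 to 3 when single libraries were left out. The counts over all genes, 2738, were 1508 without parental 2, 1531 without restored 3 and 1394 without restored 4. They were 3523 without parental 1 and 3159 without restored 1, the fits in which 12 listed genes rose. The COX7B2 share in restored libraries ranged from 1.10 to 1.63% without single libraries. The replicate numbers did not pair the libraries (correlations of same-numbered deviations −0.06 to 0.23; 1 library correlated best with its own number). With the replicate number as a block, 7 of the listed genes passed, 5 of them higher, NDUFAF1 being lost (adjusted p = 0.083), and 2033 of all genes. The cause of these changes was not tested. Depth limits the isoforms with few counts. Of the listed genes, 28 overlap a tested gene on the other strand and 6 on the same strand, and 62 of 195 pseudogene copies held counts, equal to 0.385% of the listed genes' counts in parental and 0.352% in restored libraries.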
